A study of Mus musculus with 3 samples.

Results

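A set of 10 genes named for muscle, of the 22535 genes in the 3 tables, were followed across the cells of the mouse kidney cortex. Myl7, Myom2, Nebl and Smyd1 are known from heart and skeletal muscle and are called the striated names here, and Myl9, Tagln, Acta2, Myh11, Pln and Des are called the smooth muscle names. The members were chosen by their measured values in these libraries, the striated names for their UMIs in podocytes and the smooth muscle names for their UMIs in mural cells, so that the contrast between those cell types is a description and no test of it was made. All 10 members were counted in the tables, from 2881 UMIs for Des to 108497 for Nebl, and none was lost to a filter on low values.

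The libraries came from the kidney cortex of WT1CreERT2; Rosa26-tdT fl/+ mice, in which tamoxifen lets a Cre recombinase made from the WT1 locus switch on the red protein tdTomato (tdT). In the healthy kidney this locus is active in podocytes and in some parietal epithelial cells (PECs), so tdT+ cells are mostly podocytes. The Sham library was made from sham-operated mice and mixed sorted tdT+ cells with tdT- cells. A mixture of the same kind, taken 24 h after ischemia-reperfusion injury (IRI, severe and of both kidneys), made up IRI24h-TDN, while only tdT+ cells of that time after IRI went into IRI24h-TD. All 3 libraries share the genotype. Each library pooled cells of several kidneys and each condition had 1 library, so no difference between libraries has a replicate check and no p-value is given.

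On the BD Rhapsody platform RNA molecules carry a barcode of their own, the unique molecular identifier or UMI, and levels are given as UMIs per 1000000 UMIs of the same cells (CPM). A molecule is counted once whatever its length, and levels were not divided by gene length. The Sham table held 69980443 UMIs, that of IRI24h-TDN 92355554 and that of IRI24h-TD 93470709, and 26760 of 30008 barcodes passed the limits of 200 genes and 50% mitochondrial UMIs. Pairs of libraries shared 102 to 114 barcodes, and 540 kept cells carried a shared barcode. Intervals are exact 95% intervals of the counts (Poisson for a level, Clopper-Pearson for a share, conditional binomial for a ratio) and cover counting error only.

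Cells were named from marker genes that include no member, and the members were also kept out of the clustering. This gave 17385 podocyte-like cells (4181 from Sham, 5048 from IRI24h-TDN and 8156 from IRI24h-TD), 755 mural-like cells (284, 457 and 14) and 1868 PEC-like cells (981, 339 and 548). Mural-like cells are the clusters with markers of smooth muscle, renin cells, pericytes and mesangial cells, and with 14 cells IRI24h-TD gives no mural-like values. The podocyte markers summed to 38244 CPM in podocyte-like cells and 3851 CPM in mural-like cells, and all 10 were detected in both. Another 1015 cells of low depth with podocyte markers were left unnamed by the depth rule.

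In a striated muscle cell, myosin slides along actin within sarcomeres that are held in register by proteins of the Z-disc and the M-line. Smooth muscle cells have no sarcomeres and contract when the regulatory light chain of their myosin is phosphorylated. In the kidney, smooth muscle cells of the arterioles, renin cells, pericytes and mesangial cells make up the mural cells, whereas podocytes hold their foot processes with an actin cytoskeleton of the non-muscle kind. Among the striated names, Myl7 encodes the regulatory myosin light chain of the cardiac atrium, Myom2 an M-line protein (myomesin 2), Nebl the Z-disc protein nebulette, and Smyd1 a methyltransferase of heart and skeletal muscle that takes part in myosin assembly. Among the smooth muscle names, Acta2 encodes smooth muscle α-actin, Myh11 the smooth muscle myosin heavy chain, Myl9 a regulatory myosin light chain, Tagln the actin-binding protein transgelin (SM22α), Des the intermediate filament desmin, and Pln phospholamban, which restrains the calcium pump of the sarcoplasmic reticulum.

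All 4 striated names were found mainly in podocyte-like cells, where each stood above 150 CPM. Nebl was at 604 CPM (601 to 608), Myom2 at 539 CPM (536 to 543), Myl7 at 252 CPM (249.8 to 255) and Smyd1 at 171 CPM (169 to 173). These intervals do not overlap, but the order holds for the summed libraries and not for each: in Sham Smyd1 (204 CPM) was level with or above Myl7 (199 CPM), and the intervals overlapped for this pair and for Nebl and Myom2. Podocyte-like cells, 65.0% of all kept cells, held 95.3% of all Myl7 UMIs, 94.4% of those of Smyd1 and 93.7% of those of Myom2 and of Nebl. In mural-like cells the same genes were at 28.1, 49.8, 56.8 and 17.6 CPM for Myl7, Myom2, Nebl and Smyd1, and most of these UMIs lay in a cluster of 46 cells with high doublet scores that is described further on. At least 4-fold higher levels in podocyte-like than in mural-like cells were found for 5.57% of the 13107 genes compared, with a class at 0 set to the floor of 3 counts, and, as the rule asked, for all 4 striated names.

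The smooth muscle names were on another scale in mural-like cells. Acta2 reached 10319 CPM (10224 to 10415), Myl9 4378 CPM (4317 to 4441) and Myh11 3891 CPM (3833 to 3950). Pln was at 628 CPM (605 to 652), Tagln at 582 CPM (559.997 to 605) and Des at 131 CPM (121 to 143), and of the neighbours in this order only Pln and Tagln had intervals that touch. In podocyte-like cells the 6 genes stood between 0.66 CPM for Pln and 8.34 CPM for Des. Levels at least 4-fold lower in podocyte-like than in mural-like cells were seen for 11.5% of all genes and, again by the rule, for all 6 smooth muscle names. The least separated was Des, whose 1404 UMIs in podocyte-like cells were 48.7% of all its UMIs. Podocyte-like cells made up 65.0% of all kept cells.

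**Figure D1:**
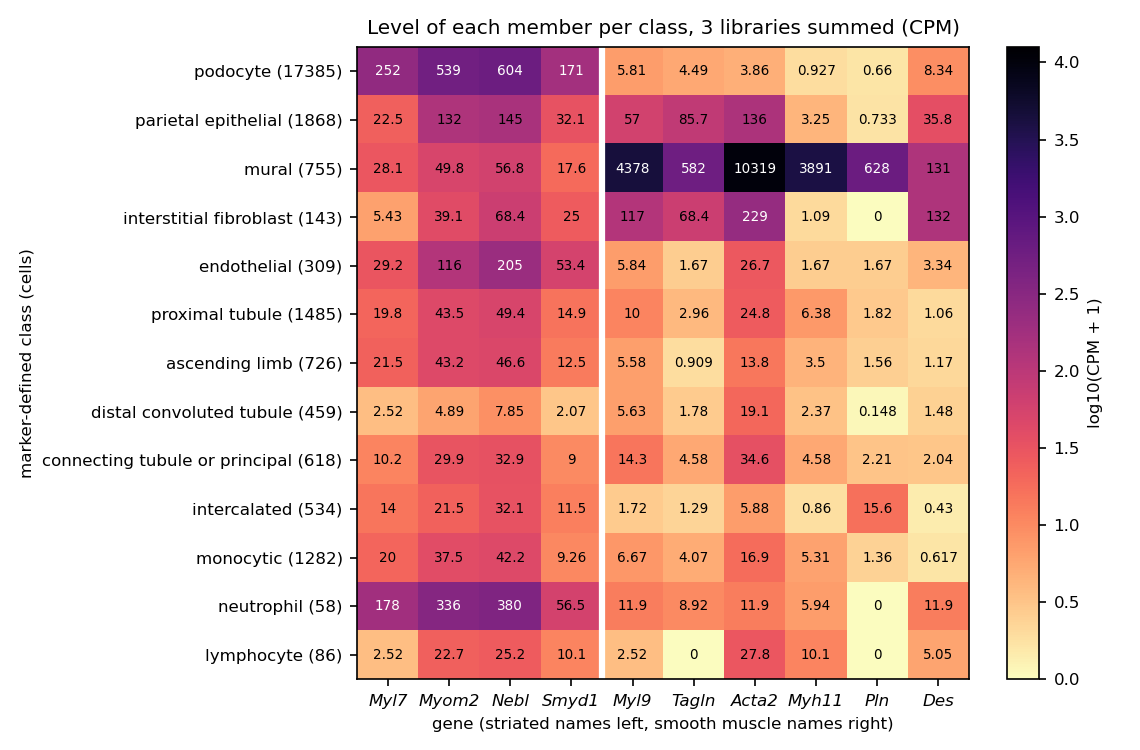
Level of each member in each marker-defined class, with the 3 libraries summed, in CPM (printed) and on a log10(CPM + 1) colour scale; the number of cells stands beside each class. The 4 striated names are darkest in podocyte-like cells (171 to 604 CPM) and the 6 smooth muscle names in mural-like cells (131 to 10319 CPM).

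Single cells gave the same picture, with a difference between the members. Myom2 was detected in 97.3% and Nebl in 97.5% of podocyte-like cells, Smyd1 in 55.6% and Myl7 in 35.4%, at a median of 9325 UMIs per cell. Monocytic-like cells, which should lack these genes and had a median of 5369 UMIs, held a UMI of Myom2 in 6.63%, of Nebl in 7.02%, of Smyd1 in 2.65% and of Myl7 in 2.34% of cells. In the main monocytic-like cluster of 935 cells these shares were lower, at 2.25%, 2.78%, 0.963% and 0.749%. After every cell was thinned to 2400 UMIs, the shares in podocyte-like cells were 70.8% for Myom2, 73.8% for Nebl, 28.2% for Smyd1 and 24.4% for Myl7. At this depth 95.9% of podocyte-like cells held at least 1 striated name and 3.29% held all 4. The share of thinned cells with both Myom2 and Nebl was 52.2%, equal to the product of the 2 shares, and the share with Myl7 and Smyd1 was 6.23% against a product of 6.90%. For Myl7 with Smyd1 the shares were 6.27% against 6.14% in Sham, 5.84% against 7.09% in IRI24h-TDN and 6.45% against 7.07% in IRI24h-TD, so Sham lay on the other side.

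In mural-like cells Myl9 was detected in 98.5%, Acta2 in 97.2%, Myh11 in 94.8%, Tagln in 80.9%, Pln in 73.1% and Des in 39.3% of cells, at a median of 5216 UMIs. Monocytic-like cells held a UMI of Acta2 in 7.72%, of Myl9 in 2.5%, of Tagln in 1.72%, of Myh11 in 1.25%, of Pln in 0.546% and of Des in 0.234%. After thinning, 84.9% of mural-like cells held at least 4 of the 6 smooth muscle names. Of 17362 thinned podocyte-like cells, 27 held 2 of them and none held 3 or more, which limits the share detected at this depth to 0.0173% and not the share of cells that express them. Over the summed libraries the shares of podocyte-like cells with Acta2 (3.42%), Myh11 (0.805%) and Pln (0.541%) were at or below those of monocytic-like cells. In Sham alone they were 6.55%, 1.70% and 0.622% against 5.64%, 1.88% and 0%. After thinning the Sham shares were 1.68%, 0.335% and 0.239% against 3.83%, 0.697% and 0%. Whether these UMIs are background was not tested. The summed shares for Des (6.28%), Tagln (3.36%) and Myl9 (4.64%) were above those of monocytic-like cells, at the greater depth of the podocyte-like cells. After thinning they were 1.87% for Des and 0.968% for Tagln against 0.0803% and 0.482% in monocytic-like cells.

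Myl7 was spread over podocyte-like cells in another way than the other striated names. In the tables as deposited 64.6% of podocyte-like cells had no Myl7 UMI, although cells that did have it held a median of 5, as many as for Myom2 and for Nebl. The 10% of cells with the most Myl7 held 61.6% of its UMIs, against 22.9% for Myom2, 23.1% for Nebl and 40.7% for Smyd1. The variance over the mean of the thinned counts was 3.26 for Myl7, 1.46 for Smyd1, 1.19 for Nebl and 1.16 for Myom2, where counting error alone gives a value near 1. Of 2418 genes with a thinned mean of at least 0.2 UMIs in podocyte-like cells, 17 had a higher value than Myl7 and the median was 1.12. The value for Myl7 was 3.13 (Sham), 3.36 (IRI24h-TDN) and 3.22 (IRI24h-TD), so the uneven spread was present in each of the 3 libraries.

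**Figure D2:**
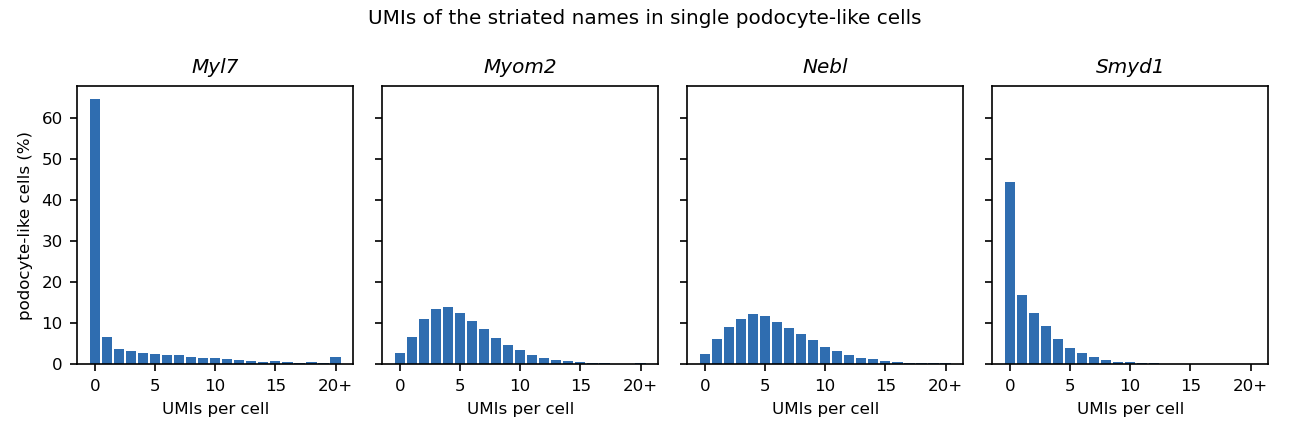
Share of the 17385 podocyte-like cells (vertical axis, %) with each number of UMIs per cell (horizontal axis, counts of 20 and more in the last bar) for Myl7, Myom2, Nebl and Smyd1, 3 libraries summed. Myl7 combines 64.6% of cells at 0 with a long tail, while Myom2 and Nebl peak at a few UMIs per cell, with 2.66% and 2.48% of cells at 0.

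Cells with and without a striated name were compared for their other genes. In each library, thinned cells with at least 2 UMIs of a striated name were set beside cells with none, over genes with at least 50 UMIs. For Myl7 none of 8799 other genes differed by 2-fold in the same direction in all 3 libraries, and the same count was 0 for Myom2 and 0 for Nebl. For Smyd1 3 genes were at least 2-fold lower in all 3 libraries in the cells that held it, Ccnb1ip1, Crispld2 and Pttg1. Pttg1, which encodes securin, had 10 UMIs in Smyd1 cells and 180 in cells without it (Sham), 16 against 438 (IRI24h-TDN) and 20 against 592 (IRI24h-TD), or 8.33 against 26.2 CPM, 15.4 against 49.8 CPM and 12.9 against 41.6 CPM. These 3 genes were named after their values were seen. Cells of all podocyte-like clusters were compared together, and the part of the clusters in these differences was not tested.

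Across the 6 podocyte-like clusters Smyd1 varied most among the striated names. It ranged from 110 CPM in a cluster of 3837 cells to 229 CPM in a cluster of 2873 cells, while Myl7 ranged from 226 to 292 CPM, Myom2 from 502 to 562 CPM and Nebl from 569.6 to 637 CPM. The clusters were made without the members, and their podocyte markers summed to between 35188 and 42791 CPM.

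Nebl was also found at a higher level than the other striated names in some clusters of endothelial-like, mural-like and PEC-like cells. In the main endothelial-like cluster of 280 cells it was at 107 CPM (87.0 to 131) and in 13.2% of cells, with Myom2 at 15.3 CPM, Smyd1 at 12.0 CPM and Myl7 at 5.47 CPM. In the 2 large mural-like clusters Nebl stood at 17.8 and 11.1 CPM against 4.12 and 6.16 CPM for Myom2. In the main monocytic-like cluster of 935 cells Nebl and Myom2 stood at 6.89 and 4.66 CPM. A like gap was found in PEC-like cells, with Nebl at 130 CPM and in 42.0% of cells of a cluster of 414 cells led by Clstn2, where Myom2 was at 14.3 CPM, and at 36.9 against 8.89 CPM in a cluster of 292 cells led by Wnt16. Neutrophil-like cells (58 cells) held all 4 striated names at 56.5 to 380 CPM together with the podocyte markers at 20192 CPM, and 20.7% of them were among the cells with the top 6% of doublet scores.

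Most of the striated UMIs of the mural-like class sat in a cluster of 46 cells. There Myom2 was at 349 CPM, Nebl at 336 CPM, Myl7 at 194 CPM and Smyd1 at 123 CPM, the podocyte markers summed to 24329 CPM, the median depth was 12068 UMIs, and 93.5% of the cells were among the top 6% of doublet scores. In the other 2 mural-like clusters Myl7 was at 4.12 and 1.85 CPM and Smyd1 at 1.37 and 2.46 CPM. Another 6 clusters of 28 to 111 tubular, endothelial-like or monocytic-like cells were alike in this, with 78.6% to 90.2% of cells in the top 6% of doublet scores and podocyte markers at 17258 to 32042 CPM. Their part in the levels above was not tested beyond leaving out cells by doublet score, after which 1.84% of mural-like cells held Myl7 and 2.70% Myom2, in place of 3.71% and 8.34%.

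The smooth muscle names differed between the 2 large mural-like clusters. The cluster led by Cnn1 (370 cells) had Acta2 at 14066 CPM, Myl9 at 6006 CPM, Myh11 at 5212 CPM, Pln at 941 CPM and Tagln at 794 CPM. The cluster led by Ren1, the gene of renin, and Notch3 (339 cells) had Acta2 at 7384 CPM, Myl9 at 3083 CPM, Myh11 at 3020 CPM, Pln at 354 CPM and Tagln at 410 CPM. Des ran the other way, with 109 CPM (95.5 to 124) in the Cnn1 cluster and 188 CPM (167 to 210) in the Ren1 cluster. Every Cnn1 cluster cell held Acta2, Myl9 and Myh11, and Pln was in 90.5% of them against 53.1% in the Ren1 cluster.

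A set of PEC-like cells held 4 of the 6 smooth muscle names. In the PEC-like cluster led by Clstn2 and Vit (414 cells) Acta2 stood at 656 CPM, Tagln at 307 CPM, Myl9 at 202 CPM and Des at 181 CPM. Myh11 was at 6.03 CPM there (3.45 to 9.80), and no UMI of Pln was seen, which allows a level of up to 1.13 CPM by the floor of 3 counts. The cluster led by Wnt16 and Tnc (292 cells) had the same genes at lower levels, with Acta2 at 182 CPM, Myl9 at 109 CPM, Tagln at 99.2 CPM and Des at 14.0 CPM, and with Myh11 at 1.71 CPM. In the PEC-like cluster led by Igfbp2 (489 cells) Tagln stood at 103 CPM and in 35.6% of cells, with Acta2 at 35.3 CPM, Des at 31.6 CPM and Myl9 at 23.7 CPM. The PEC-like cluster led by Gc (673 cells) had Acta2 at 17.2 CPM and Tagln at 3.68 CPM. Acta2 and Myh11, at 656 and 6.03 CPM in the Clstn2 cluster, stood at 10319 and 3891 CPM in mural-like cells. Mural markers summed to 908 CPM in the Clstn2 cluster, against 20225 CPM in the Cnn1 cluster and 33277 CPM in the Ren1 cluster.

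The genes were found in the same PEC-like cells. Of the 169 cells of the Clstn2 cluster with Acta2, 72.8% also held Tagln, 62.1% Myl9, 53.8% Des and 4.73% Myh11, against 31.8%, 24.1%, 31.4% and 0.816% of the 245 cells without it, at a median depth of 6191 against 5263 UMIs. Acta2 in this cluster was at 468 CPM in Sham, 1401 CPM in IRI24h-TDN and 777 CPM in IRI24h-TD, over 273, 51 and 90 cells. Acta2 was thus present in this cluster in each of the 3 libraries, Sham included. Interstitial fibroblast-like cells (143 cells) had a like profile, with Acta2 at 229 CPM, Des at 132 CPM, Myl9 at 117 CPM, Tagln at 68.4 CPM, Myh11 at 1.09 CPM and no UMI of Pln.

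**Figure D3:**
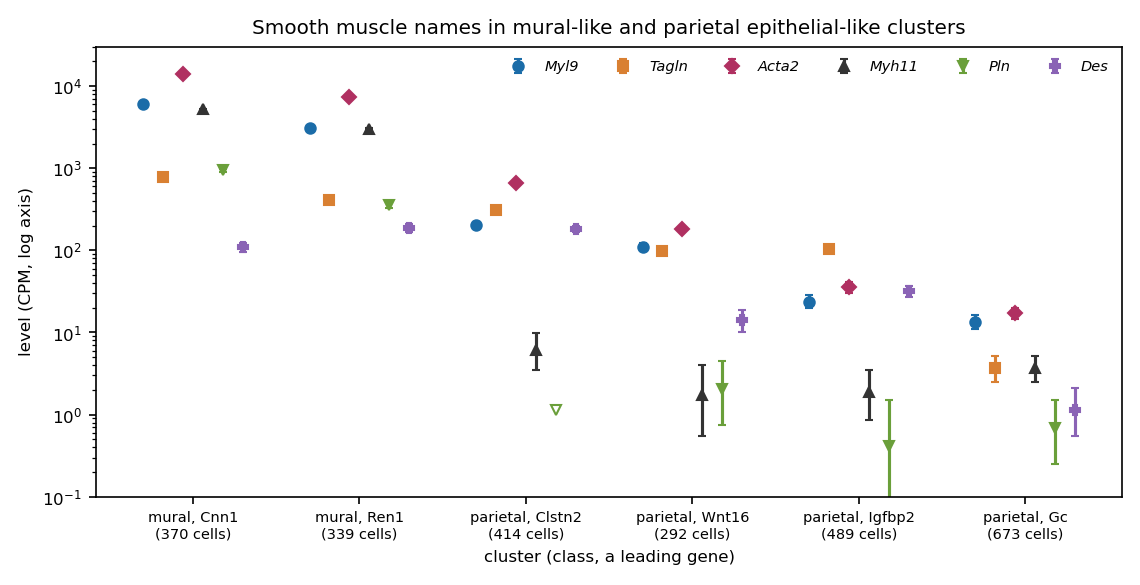
Level of the 6 smooth muscle names (CPM, log axis, with 95% counting intervals) in the 2 large mural-like clusters and the 4 PEC-like (parietal) clusters, each named by a leading gene; the open symbol is a gene without UMIs drawn at the floor of 3 counts. Myh11 (triangles) and Pln (inverted triangles) stand at 354 CPM or more in mural-like clusters and at 6.03 CPM or less in PEC-like clusters, while Acta2 reaches 656 CPM and Tagln 307 CPM in the Clstn2 cluster.

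Pln was found in 1 further place. The intercalated-like cluster with Slc4a1, the anion exchanger of type A intercalated cells, at 1531 CPM had Pln at 38.9 CPM (31.7 to 47.4) and in 25% of its 248 cells. The intercalated-like cluster with Slc26a4, the pendrin gene of the other intercalated type, at 3089 CPM had Pln at 1.55 CPM and in 1.56% of 256 cells. Acta2 was at 5.45 and 6.19 CPM in these clusters and Myh11 at 1.17 and 0.773 CPM. In the Slc4a1 cluster Pln was at 54.3 CPM in Sham and 24.9 CPM in IRI24h-TDN.

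The 2 regulatory light chain genes, Myl7 of the striated and Myl9 of the smooth muscle names, lay on opposite sides of this contrast. Myl7 was at 252 CPM in podocyte-like and 28.1 CPM in mural-like cells (4.12 and 1.85 CPM in their 2 large clusters), and Myl9 at 5.81 and 4378 CPM. Myl7 lies on chromosome 11 (5896637 to 5898782, minus strand) and Myl9 on chromosome 2 (156775420 to 156781658, plus strand) of the mouse build GRCm38. Stretches of 150 bases before the RefSeq start of both are shown because their windows carry a CArG box, the site bound by serum response factor. Only its strict form was searched, CC and GG with nothing but A or T between them. Myl7 and Myl9 are the members that hold this form once each and outside alternative promoters. The capitals mark the CArG box and, in Myl7, also the MCAT element CATTCC just before it, and both are written 5′ to 3′ in the sense of the gene.
Myl7, chr11:5898783-5898932, minus strand, bases 150 to 1 before the start: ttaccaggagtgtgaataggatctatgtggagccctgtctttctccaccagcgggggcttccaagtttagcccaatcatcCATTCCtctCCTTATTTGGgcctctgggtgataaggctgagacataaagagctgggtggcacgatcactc
Myl9, chr2:156775264-156775413, plus strand, bases 200 to 51 before the start: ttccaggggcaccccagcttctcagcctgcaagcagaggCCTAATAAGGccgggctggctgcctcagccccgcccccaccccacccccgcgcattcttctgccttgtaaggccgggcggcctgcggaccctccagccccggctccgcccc
The box began 61 bases before the start in Myl7 and 161 bases before it in Myl9. Both strands were searched in the 250 bases before each start for 7 of the 10 members with a RefSeq window, and Myom2, Tagln and Myh11 had none. A CArG box of the strict form was found for 3 members, Myl7, Myl9 and 1 of 4 Nebl windows, and in 1.47% of all 32851 windows. Boxes with another base in the core were not searched, so a member without a match may still hold such a box. CATTCC or its reverse complement was found for Myl7, Acta2 and 1 Nebl window, and in 12.6% of all windows. A match is a sequence of letters and not a bound site.

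Between Sham and IRI24h-TDN the sum of the 4 striated names in podocyte-like cells was close, at 1539 and 1551 CPM, with 1588 CPM in IRI24h-TD. The log2 ratio of IRI24h-TDN over Sham was 0.01 (-0.01 to 0.03). The members did not share this. Myl7 was at 199 CPM in Sham, 279 CPM in IRI24h-TDN and 259 CPM in IRI24h-TD, and it was detected in 27.7%, 36.8% and 38.4% of cells. Its log2 ratio of IRI24h-TDN over Sham was 0.49 (0.44 to 0.53), and it was higher in both IRI libraries than in Sham in 6 of 6 podocyte-like clusters.

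Smyd1 went the other way, with 204 CPM in Sham, 168 CPM in IRI24h-TDN and 158 CPM in IRI24h-TD, a log2 ratio of -0.28 (-0.33 to -0.23) for IRI24h-TDN over Sham. It was lower in IRI24h-TDN than in Sham in 5 of the 6 clusters. Myom2 was at 565 CPM, 519.6 CPM and 539.5 CPM in the 3 libraries, and Nebl at 570.1, 584 and 631 CPM, with log2 ratios of -0.12 and 0.03 for IRI24h-TDN over Sham. For each of the 4 genes both IRI libraries stood on the same side of Sham. The 2 IRI libraries share Sham as their control and are not independent of each other.

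**Figure D4:**
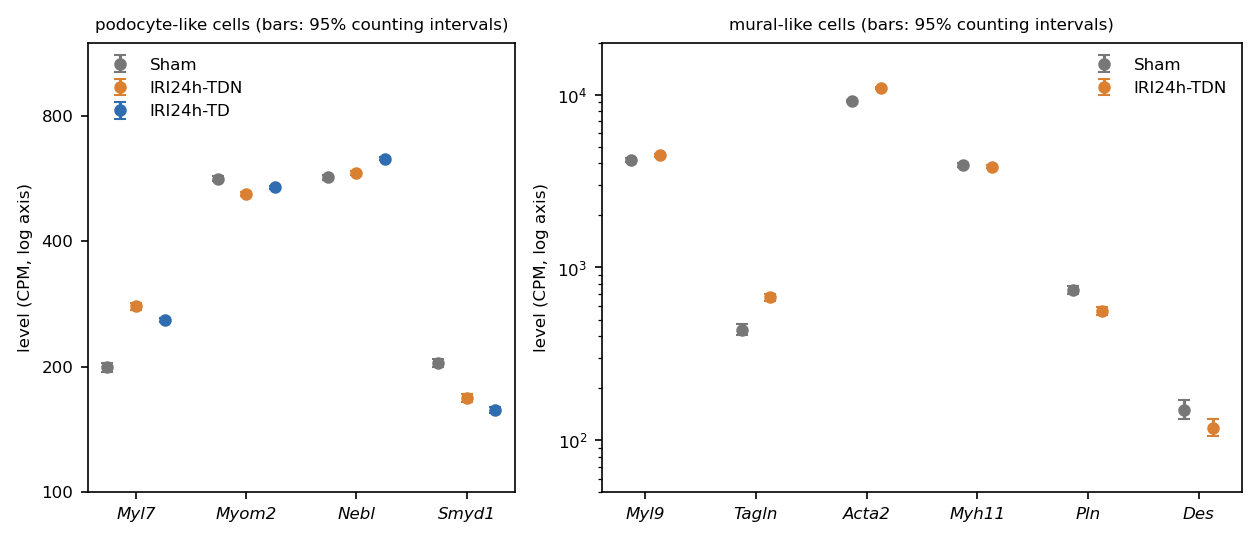
Level of the striated names in podocyte-like cells of the 3 libraries (left) and of the smooth muscle names in mural-like cells of Sham and IRI24h-TDN (right), in CPM on log axes, with 95% counting intervals; each point is 1 library. Myl7 is lowest and Smyd1 highest in Sham, and Tagln and Acta2 are higher in IRI24h-TDN.

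Among the smooth muscle names in podocyte-like cells, Des and Tagln were higher after IRI. Tagln is described first. Its UMIs numbered 57 (Sham), 314 (IRI24h-TDN) and 384 (IRI24h-TD), or 1.58 CPM (1.32% of cells), 6.42 CPM (4.56%) and 4.62 CPM (3.67%). The log2 ratio of IRI24h-TDN over Sham was 2.03 (1.62 to 2.46), and Tagln was higher in both IRI libraries than in Sham in 6 of 6 podocyte-like clusters, up to 15.4 CPM in a cluster of 704 cells of IRI24h-TDN. A level at least 2-fold higher in IRI24h-TDN than in Sham was found for 4.56% of the 11896 genes compared in podocyte-like cells, and Tagln was the 1 member among them. Monocytic-like cells had Tagln at 3.72 CPM (1.57% of cells) in Sham and 4.22 CPM (1.79%) in IRI24h-TDN. Podocyte-like cells of Sham thus did not stand above them, and whether their Tagln UMIs are background was not tested. In podocyte-like cells without any UMI of a mural marker the log2 ratio was 2.0.

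For Des the podocyte-like cells held 161 UMIs (Sham), 424 (IRI24h-TDN) and 819 (IRI24h-TD), or 4.45, 8.67 and 9.84 CPM in 2.82%, 6.38% and 7.99% of cells. The log2 ratio of IRI24h-TDN over Sham was 0.96 (0.70 to 1.23), and Des was higher in IRI24h-TDN than in Sham in 5 of 6 clusters. In monocytic-like cells Des was at 0.621 CPM in Sham and 0.625 CPM in IRI24h-TDN. With every cell thinned to 2400 UMIs the log2 ratios were 1.84 for Tagln and 0.71 for Des.

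Acta2 and Myh11 followed another order in podocyte-like cells. Acta2 was at 8.12 CPM in Sham, 6.05 CPM in IRI24h-TDN and 0.709 CPM in IRI24h-TD, and Myh11 at 2.16, 1.27 and 0.192 CPM. For IRI24h-TDN over Sham the log2 ratio of Acta2 was -0.42, and 0.07 after thinning, so it has no stable direction. IRI24h-TD was the lowest for both, and it was the library with 14 mural-like cells, against 284 in Sham and 457 in IRI24h-TDN. Sham had fewer mural-like cells than IRI24h-TDN and the higher CPM of both genes. Whether these levels follow the mural-like cells of a library was not tested. Proximal tubule-like cells also had their lowest Acta2 in IRI24h-TD, at 4.29 CPM (4 UMIs). In Sham it was at 26.9 CPM (236 UMIs) and in IRI24h-TDN at 25 CPM (86 UMIs). The log2 ratio of these 2 was -0.11 (-0.48 to 0.26), so they showed no order. The top cell held 35.6% of the Acta2 UMIs of these cells in Sham and 55.8% in IRI24h-TDN. Between IRI24h-TD and IRI24h-TDN 1.16% of 12040 genes were at least 2-fold lower in podocyte-like cells, Acta2 and Myh11 among them, and 0.141% were at least 2-fold higher, with no member. Against Sham, 6.83% of genes were at least 2-fold lower in IRI24h-TDN, again with no member. In podocyte-like cells without any UMI of a mural marker the log2 ratio of Acta2 for IRI24h-TDN over Sham was -0.42, as in all podocyte-like cells.

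**Figure D5:**
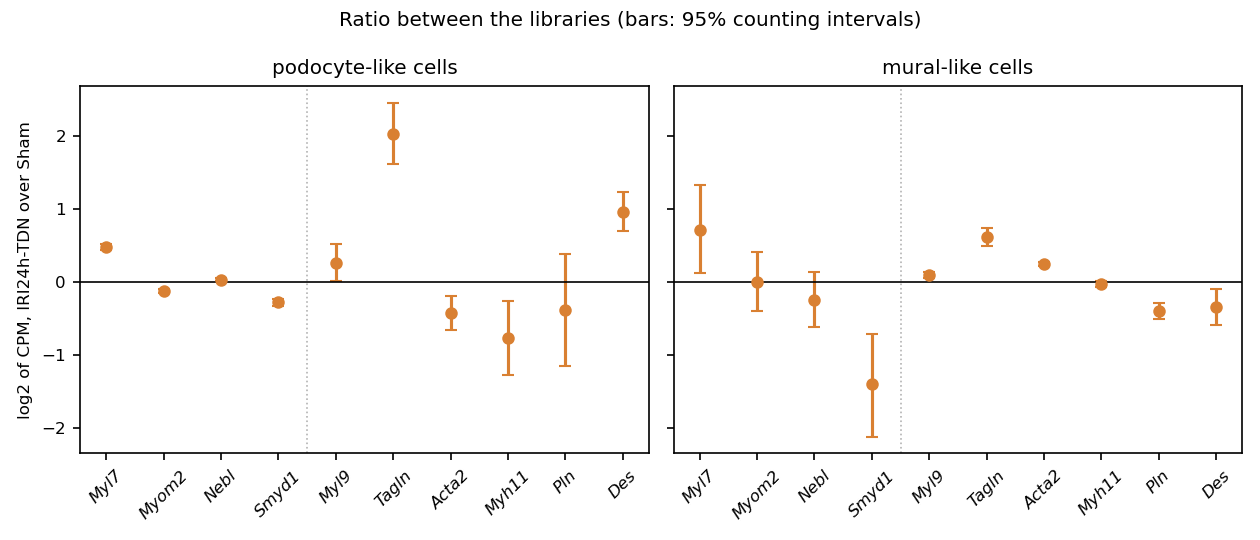
Log2 ratio of the level (CPM) in IRI24h-TDN over Sham for each member in podocyte-like (left) and mural-like cells (right), with 95% counting intervals; the dotted line parts striated from smooth muscle names, and each point compares 1 library with 1 library. Tagln stands at 2.03 and Des at 0.96 in podocyte-like cells, against 0.62 and -0.35 in mural-like cells.

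In mural-like cells the sum of the smooth muscle names was 18600.3 CPM in Sham and 20573 CPM in IRI24h-TDN, a log2 ratio of 0.15 (0.13 to 0.17). Tagln was at 438 and 672 CPM (log2 ratio 0.62, 0.49 to 0.75) and was detected in 71.5% and 86.4% of cells. Acta2 was at 9184 and 10930.0 CPM (0.25), Myl9 at 4176 and 4458 CPM (0.09), and Myh11 at 3913 and 3833 CPM (-0.03, -0.07 to 0.02), so that the interval for Myh11 holds 0, and its sign turned under 4 of the alternatives. Pln was at 739 and 561 CPM (-0.40) and Des at 150.3 and 118 CPM (-0.35, -0.59 to -0.10). No member was at least 2-fold higher, against 3.31% of 8025 genes. Of the members only Smyd1, with 48 and 29 UMIs, was at least 2-fold lower, against 3.3% of all genes, and its UMIs lay mostly in the cluster of 46 cells.

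The Ren1 cluster differed more between the libraries than the Cnn1 cluster. Its smooth muscle names summed to 10462 CPM in Sham and 16640 CPM in IRI24h-TDN, a log2 ratio of 0.67 (0.63 to 0.71), against 26146 and 27616.5 CPM and 0.08 (0.05 to 0.10) in the Cnn1 cluster. Acta2 in the Ren1 cluster was at 4890 and 8757 CPM (0.84), Tagln at 284 and 481 CPM (0.76), Myl9 at 2303 and 3522 CPM (0.61) and Myh11 at 2449 and 3344 CPM (0.45). The share of its cells with Myh11 was 79.0% in Sham and 94.4% in IRI24h-TDN. In the Cnn1 cluster Tagln was at 592 and 941 CPM (0.67) while Acta2 had a log2 ratio of 0.17 and Myh11 of -0.10. Pln was at 1114 and 833 CPM in the Cnn1 cluster (-0.42) and at 321 and 367 CPM in the Ren1 cluster (0.19, -0.07 to 0.46), so the lower Pln of the class was not seen in both clusters. The Cnn1 cluster held 148 of 284 mural-like cells in Sham and 215 of 457 in IRI24h-TDN, and the Ren1 cluster 119 and 213. Both clusters had Des lower in IRI24h-TDN, with log2 ratios of -0.43 and -0.35. The mural markers themselves were lower in IRI24h-TDN in both, at 40528 and 29148 CPM in the Ren1 cluster and 25204 and 16769 CPM in the Cnn1 cluster.

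In PEC-like cells the striated names summed to 174 CPM in Sham and 372 CPM in IRI24h-TDN, and the smooth muscle names to 396 and 290.3 CPM. The cluster led by Igfbp2, which had podocyte markers at 24243 CPM and Myom2 at 480.3 CPM, gave 150 of 981 PEC-like cells in Sham and 119 of 339 in IRI24h-TDN. The Clstn2 cluster, the one with most Acta2, gave 273 and 51. The make-up of the class differed between libraries beside its levels, and its part in them was not tested. Within the Gc cluster Nebl was at 12.3 CPM in Sham and 12.0 CPM in IRI24h-TDN.

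Other genes of the same pathways were read from lists of known genes, chosen with earlier results of these data in view. Of 50 further genes of the striated sarcomere, 21 could be compared between podocyte-like and mural-like cells, of which 4 were at least 4-fold higher in podocyte-like and 11 in mural-like cells, with a median log2 ratio of -2.47 against 0.08 for all genes. Another 2, Myoz1 and Trim63, had no UMI in mural-like cells and too few in podocyte-like cells to bound the ratio at 4-fold. Mylk3, the cardiac myosin light chain kinase, was the best measured of the podocyte side, at 16.2 CPM in podocyte-like cells (2733 UMIs). In mural-like cells it was at 0.457 CPM (2 UMIs), a ratio of 35.6 (9.84 to 294). These 2 UMIs lie below the floor of 3 counts (0.685 CPM). Myoz1, a Z-disc protein of fast muscle, was at 2.34 CPM in podocyte-like cells and at least 3.42-fold higher. Trim63, a ubiquitin ligase of muscle, was at 0.82 CPM and at least 1.20-fold higher. In PEC-like cells Mylk3 was at 1.94 CPM, Myoz1 at 1.31 CPM and Trim63 at 2.56 CPM. Over the summed libraries Trim63 was thus higher there than in podocyte-like cells. By library Trim63 was at 5.10 against 2.54 CPM in Sham and 0 against 0.266 CPM in IRI24h-TDN. In IRI24h-TD it was at 0.619 CPM (4 UMIs) against 0.397 CPM. On the mural side were Ldb3, a Z-disc protein, at 245 CPM and Xirp1, an actin-binding protein of the intercalated disc, at 187 CPM, against 0.392 and 0.101 CPM in podocyte-like cells. Myh6, the cardiac α-myosin heavy chain, had 82 UMIs in mural-like and none in podocyte-like cells, at least 1050-fold higher.

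Mylk3 stood apart from Myl7 between the libraries. In podocyte-like cells it was at 34.2 CPM in Sham (12.2% of cells), 10.2 CPM in IRI24h-TDN (6.12%) and 12.0 CPM in IRI24h-TD (7.09%), a log2 ratio of -1.74 (-1.90 to -1.59) for IRI24h-TDN over Sham. Trim63 was at 2.54, 0.266 and 0.397 CPM in the same order, and Myoz1 at 1.49, 2.70 and 2.5 CPM. Monocytic-like cells had Mylk3 at 1.86 CPM in Sham and 1.41 CPM in IRI24h-TDN. The kinase gene was lower than in Sham in both IRI libraries, and Myl7 was higher in both.

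Genes of sarcoplasmic calcium handling, the setting in which Pln works, lay on the mural side. Of 10 compared, 7 were at least 4-fold higher in mural-like and 1 in podocyte-like cells, with a median log2 ratio of -6.61. Jph2, which holds the sarcoplasmic reticulum to the plasma membrane, was at 196 CPM in mural-like cells, Hrc at 81.3 CPM and the calcium store protein Casq2 at 65.1 CPM, against 0.113, 0.208 and 0.0416 CPM in podocyte-like cells. Casq2 was at 41.2 CPM in mural-like cells of Sham and 80.7 CPM in IRI24h-TDN, and Hrc at 119 and 58.7 CPM. The gene on the podocyte side was Mrln (myoregulin), a small inhibitor of the same calcium pump. It had 196 UMIs in podocyte-like cells and 1 in mural-like cells, a ratio of 5.10 (0.905 to 203). That 1 UMI (0.228 CPM) lies below the floor of 3 counts (0.685 CPM), and the interval of the ratio holds 1. Over the summed libraries Mrln was higher in PEC-like cells, at 1.99 CPM, than in podocyte-like cells, at 1.16 CPM. Only Sham showed this order, at 3.63 against 2.38 CPM. The levels were 0 against 0.572 CPM in IRI24h-TDN and 0.929 against 0.986 CPM in IRI24h-TD.

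Of the 29 other smooth muscle contractile genes compared, 25 were at least 4-fold higher in mural-like cells and none in podocyte-like cells, with a median log2 ratio of -6.20. Kcnmb1, a subunit of the calcium-activated potassium channel, was at 266 CPM, Gucy1b1, a subunit of the nitric oxide receptor, at 263 CPM, and Sncg (γ-synuclein) at 402 CPM in mural-like cells. Their levels in podocyte-like cells were 0.0357, 0.0594 and 0.0951 CPM. Kcnmb1 is also among the markers that named the mural-like cells. Its side was thus set by the naming, and the list was not cleared of such markers. Sncg was at 201 CPM in Sham and 525 CPM in IRI24h-TDN, while Kcnmb1 was at 264 and 263 CPM.

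The non-muscle actomyosin genes were shared between the cell types. Of 16 compared, 2 were at least 4-fold higher in each, and the median log2 ratio was -0.06. Synpo, the actin organizer of foot processes, was at 2296 CPM in podocyte-like and 407 CPM in mural-like cells. It is also among the markers that named the podocyte-like cells, so its side was set by the naming. Myl12a, a non-muscle regulatory light chain, was at 1977 and 384 CPM. Actn1 stood at 1827 CPM in mural-like and 326 CPM in podocyte-like cells, and Myh10, a non-muscle myosin heavy chain, at 116 and 19.4 CPM. In podocyte-like cells Myl12a was at 1194 CPM in Sham, 2081 CPM in IRI24h-TDN and 2257 CPM in IRI24h-TD, where Myl7 stood at 199, 279 and 259 CPM. Actn1 was at 223, 345 and 359 CPM and Synpo at 3060 CPM, 2023 and 2125 CPM in the same order. The higher Myl12a was not particular to podocyte-like cells. From Sham to IRI24h-TDN it went from 255 to 470 CPM in mural-like, 712 to 1235 CPM in PEC-like and 283 to 553 CPM in monocytic-like cells.

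Of 19 regulators of muscle genes compared, 8 were at least 4-fold higher in mural-like and 1 in podocyte-like cells. Myocd (myocardin), the co-activator of serum response factor, was at 94.3 CPM in mural-like cells with 2 UMIs in podocyte-like cells, and Mef2c was at 814 CPM against 0.38 CPM, with Gata6 at 32.4 CPM against 0.0238 CPM. On the podocyte side was Tcf21, at 577 CPM against 102 CPM. Mef2b had 71 UMIs in podocyte-like and none in mural-like cells, too few for a ratio.

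Genes with the most similar pattern were ranked by Pearson's r of log2(CPM + 1) over 24 groups (class by library, at least 50 cells), which share libraries, and the values are a description. Those nearest to Nebl were Podxl (0.99), Uaca and Clic5, and those nearest to Myom2 were C1qtnf1 (0.98), Robo2 and Loxl2. Smyd1 lay nearest to Myom2 itself (0.96), then to Nphs1 and St6galnac3, and Myl7 to Tmc7 (0.94), Mrgprf and Disp1. Podxl and Nphs1 encode podocalyxin and nephrin of the podocyte surface. Acta2 lay nearest to Rgs4 (0.96), Rbm24 and Tpm2, Myl9 to Tpm2 (0.98), Rbm24 and Lmod1, and Myh11 to Rgs7bp (0.97), P2rx1 and Kcnmb1. Genes near to Pln included Cnn1 (0.90) and S1pr3. Tagln lay nearest to Mustn1 (0.96), Nrip2 and Cap2, and Des to Serping1 (0.97), Ogn and Foxs1. Podxl, Nphs1, Lmod1, Kcnmb1, Cnn1 and Mustn1 are themselves among the markers that named the classes over which r was taken. Their nearness to members chosen as high in those classes was set in part by the naming. Within the smooth muscle names r ran from 0.41 for Pln with Des to 0.93 for Tagln with Myl9, and between striated and smooth muscle names from -0.17 to 0.33.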

How the data were processed

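Single-cell RNA libraries of mouse kidney cortex were made on the BD Rhapsody platform, 1 each for Sham, IRI24h-TDN and IRI24h-TD. The deposited tables hold raw UMI counts for every gene and barcode, without normalization, and every value was a whole number. The submitters' processing notes name CASAVA 1.8, UMI-tools, Seurat and the build mm10; the aligner and annotation are not given in the sources used here. The study states that multiplets were removed after cell selection.

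Barcodes with fewer than 200 genes or more than 50% mitochondrial UMIs were left out. Counts were scaled to 10000 per cell and logged, and 2000 variable genes without the members and without mitochondrial, ribosomal and haemoglobin genes gave 30 principal components, corrected between libraries by Harmony (theta 2) written in numpy 2.4.6. A graph of 15 neighbours per cell was split by leidenalg 0.10.2 at resolution 1. Clusters were named from marker lists, needing at least 20 cells and 3 markers in 25% of cells. Doublet scores came from simulated doublets within each library and removed no cell from the main values.

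Levels are summed UMIs per 1000000 UMIs, and shares of cells were also taken after thinning to 2400 UMIs, which left out 1368 shallower cells. With 1 library per condition no test was run. A gene was called at 4-fold between classes and 2-fold between libraries, over genes with at least 50 UMIs in the pair; 3 counts served as the floor, also for a group at 0 in a call. Named are the members, up to 3 genes in each direction of each list, the 3 genes nearest to each member (1 of them is not reported here), and others said to be chosen afterwards. The members and lists were chosen with earlier results of these data known. Python 3.11.15, scipy 1.17.1, pandas 2.3.3 and edgeR 4.0.16 (TMM factors only) in R 4.3.3 were used, with gene positions from GENCODE M21 and start sites from RefSeq (GRCm38.p6).

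The steps were tested on simulated data. Of 200 genes changed 4-fold, 100% were recovered in podocyte-like cells (11898 genes) and in mural-like cells (7927 genes), IRI24h-TDN against Sham, with 0.0342% and 0.207% of other genes called. The changed genes had at least 200 UMIs, and the libraries were drawn with counting error only. Variation between cells or between libraries was not simulated, so these shares are not error rates of the real comparisons. Cells of 6 known classes were regrouped with an adjusted Rand index of 0.886. As alternatives, the limits on mitochondrial UMIs and on genes were set tighter, and the fits were repeated with no correction between libraries, other resolutions, more variable genes, removal of high doublet scores, thinning, TMM scaling and without IRI24h-TD. Counting the low-depth cluster as podocyte-like, leaving out the mural-like cluster of 46 cells, and reading Tagln, Des and Acta2 in podocyte-like cells without mural markers were chosen after seeing the data.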

Additional observations from a re-analysis of the deposited data

Results flagged for a closer look

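Between Sham and IRI24h-TDN, 2 members differed in opposite directions in the 2 cell types. The log2 ratio of Acta2 was -0.42 (-0.66 to -0.19) in podocyte-like cells and 0.25 (0.22 to 0.28) in mural-like cells. The log2 ratio of Des was 0.96 (0.70 to 1.23) in podocyte-like cells and -0.35 (-0.59 to -0.10) in mural-like cells. With 1 library per condition the difference between the cell types was not tested for either gene. Acta2 in podocyte-like cells was at or below its level in monocytic-like cells, and its ratio was 0.07 after every cell was thinned to 2400 UMIs.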

How the results depend on the processing

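Without replicates, a value was set beside the counting interval of the value reported. Of 96 levels under an alternative, 70 stayed within it and 26 moved, of 126 log2 ratios 112 stayed, 9 moved and 5 changed sign, and of 170 shares 145 stayed and 25 moved, most of them by thinning. The summed striated level in podocyte-like cells (1567 CPM) was 1574 CPM with at most 20% mitochondrial UMIs, 1546 CPM without IRI24h-TD and 1669 CPM with TMM factors. Its log2 ratio, IRI24h-TDN over Sham (0.01), was 0.028 thinned to 2400 UMIs and 0.054 with TMM factors. The summed smooth muscle level in mural-like cells (19931 CPM) was 19658.5 CPM with at most 20% mitochondrial UMIs, 19706 CPM without correction between libraries, 20067 CPM with 4000 variable genes, 21769.7 CPM without high doublet scores, 20764 CPM thinned, 20299 CPM with TMM factors and 21719.5 CPM without the cluster of 46 cells. Its log2 ratio (0.15) was 0.22, 0.20, 0.12 and 0.17 under the first 4 of these and 0.18 without the cluster. The log2 ratio of Myh11 in mural-like cells (-0.03) was 0.035 with at most 20% mitochondrial UMIs, 0.029 without correction, 0.0019 thinned and 0.0079 without the cluster, and that of Acta2 in podocyte-like cells (-0.42) was 0.070 thinned. The cause of these moves was not tested. No paired analysis was possible because each group holds 1 library and no test was run. Limits are the single library per condition, 755 mural-like cells, rebuilt cell names, and podocyte markers detected in monocytic-like cells (3185 CPM).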
